A study of Mus musculus with 6 samples.

Results

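The genes described here are 10 genes known from trophoblast, the first extraembryonic lineage of the mouse embryo: the AP-2 factors Tfap2a and Tfap2c, the Gata factors Gata2 and Gata3, the transcription factors Eomes, Elf5, Tead4 and Hand1, and the simple-epithelium keratins Krt8 and Krt18. Included were all the probe sets that the platform annotation assigns to exactly 1 gene, that gene being on the list, which gave 21 of 45101 probe sets and 10 of the 18193 genes with a probe set of their own. Their expression was compared between wild-type mouse embryonic stem cells of the E14K line and cells labelled Gsk-3a-/-; Gsk-3b-/- (called DKO below), with 3 arrays per genotype. All cells were kept feeder-free on gelatin in medium with 15% serum and leukaemia inhibitory factor at 1000 units/ml, so both genotypes were held in a medium that sustains self-renewal. No drug, time course or induced differentiation was part of the samples. The labels do not say whether the DKO cells are 1 clone or several, whether they derive from E14K, or whether replicates were separate cultures, so p-values reflect only how far these arrays spread, and that spread may be technical.

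Trophoblast arises when the outer cells of the embryo form trophectoderm, an epithelium that later makes the placenta. In these cells Tead4, joined by its coactivator Yap, turns on Cdx2 and Gata3, and Cdx2, Eomes, Elf5 and Tfap2c then hold the trophoblast stem cell state, while Hand1 drives giant cell differentiation. Keratins 8 and 18 pair into the filaments of simple epithelia and are early proteins of trophectoderm. Embryonic stem cells come from the inner cell mass and normally keep most of this programme low, although Tfap2c is also made in pluripotent and germ cells. Gsk-3 is a kinase of the Wnt and insulin pathways.

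In the DKO cells Tfap2a was strongly higher, at about 11.0 times the wild-type level on its brightest probe set. Tfap2c was lower on all 3 of its probe sets and passed on 1. Eomes was higher on every DKO array. Its brighter probe set passed only when the replicate number or the replicate 3 arrays entered the model as a block. Gata2, Tead4, Krt8 and Krt18 did not pass, and Gata3, Elf5 and Hand1 were too dim to test. The 21 probe sets covered all 10 genes. A probe set was tested where 3 or more of the 6 arrays reached a log2 intensity of 4 (intensity 16), which kept 16 probe sets of 7 genes. On the brightest probe set of each gene 1 of the 7 tested members passed an adjusted p of 0.05 (limma, Benjamini-Hochberg over 20841 probe sets), against 4.13% of all 10496 tested genes (1.64% higher and 2.5% lower). By probe set 4 of the 16 passed, against 3.24% of all tested probe sets, but probe sets of a gene measure the same RNA, 3 of these 4 were those of Tfap2a, and the dimmest of the 3 was tested only through its DKO arrays. In 3 of the 7 genes (Tfap2a, Tfap2c and Eomes) every DKO array lay on the same side of every wild-type array, against 18.9% of all tested genes. When the replicate number entered as a block, 2 of the 7 passed, against 10.7% of all tested genes. Over the 7 tested members the median log2 difference was 0.39, and over all tested genes -0.0025.

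**Figure D1:**
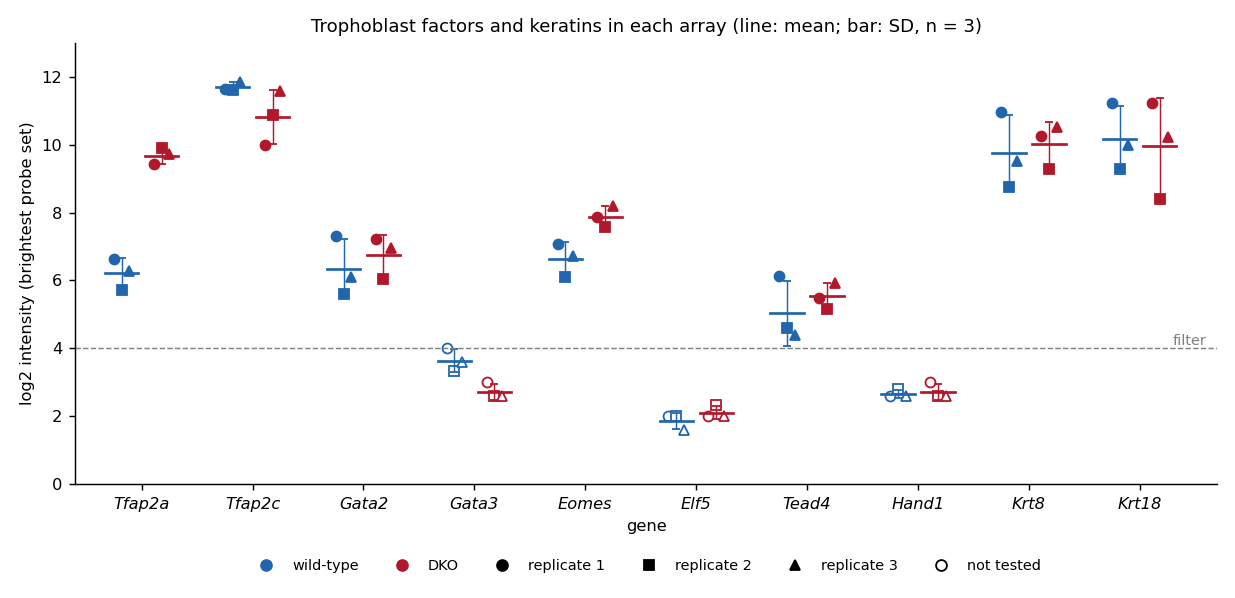
Log2 intensity of the brightest probe set of each of the 10 genes on each array, with the mean as a line and the SD as a bar (n = 3 arrays per genotype). Tfap2a stands apart between the genotypes, the keratins spread widely within both, and the open symbols of Gata3, Elf5 and Hand1 lie at or below the filter at log2 4.

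The deleted genes and the arrays themselves were checked first. The probe set of Gsk3a read intensities of 145, 135 and 66 in DKO and 403, 238 and 239 in wild-type cells (adjusted p = 0.0942 by limma, and 0.00646 with the replicate block). The brightest of 5 Gsk3b probe sets overlapped between the genotypes (adjusted p = 0.832), and whether these probe sets lie in deleted parts is not known here, so they do not check the labels. Both replicate 3 arrays carried bacterial spike-in signal (mean log2 9.501 and 9.911, against 1.73 to 1.85 on the other 4 arrays). Signal at the 3' over the 5' end of 3 control transcripts lay between 1.83 and 2.44 log2 units in DKO and between 1.64 and 2.30 in wild-type arrays. By replicate number it was 1.64 to 1.83 on the replicate 3 arrays and 2.00 to 2.44 on those of replicates 1 and 2. The replicate 3 arrays thus differed from the others in this measure as well as in spike-in signal. The stem cell genes Pou5f1, Sox2 and Nanog differed by 0.18, -0.21 and -0.14, and by limma 0 of the 12 stem cell markers passed (0 at an unadjusted p under 0.05, and 0 with the replicate block). Pou5f1, Sox2 and Nanog, which define embryonic stem cells, read above log2 10 on every array of both genotypes.

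AP-2 factors bind GC-rich DNA as dimers. Tfap2a is the AP-2 gene of surface ectoderm and neural crest and is also made in trophoblast, and Tfap2c is the main AP-2 gene of the trophoblast stem cell. The brightest Tfap2a probe set read intensities of 684, 950 and 842 on DKO replicates 1 to 3 and 100, 53 and 77 on the wild-type arrays. Every DKO array lay far above every wild-type array, and the spread within either genotype was less than 2-fold. The mean log2 intensity (± SD, n = 3) was 9.68 ± 0.24 in DKO against 6.21 ± 0.46 in the wild type, a difference of 3.46 (SE 0.29, adjusted p = 0.00046 by limma), or 11.0-fold with a 95% interval of 6.97 to 17.4. In RNA from whole cultures, more cells that express a gene and more RNA per cell cannot be told apart.

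The other Tfap2a probe sets also rose. The second brightest read 230, 398 and 251 in DKO and 32, 22 and 14 in wild-type cells, a log2 difference of 3.73 (SE 0.35, adjusted p = 0.000826). The dimmest read 121, 84 and 154 in DKO and 10, 7 and 9 in wild-type cells. It entered the test only through its DKO arrays, and with the wild-type arrays set to the filter it was at least 7.26-fold higher in DKO (adjusted p = 0.00029). The 2 brighter probe sets still passed whichever of the 6 arrays was omitted, with adjusted p-values up to 0.0148. The same-numbered arrays differed on the brightest probe set by 2.77, 4.16 and 3.45 log2 units in replicates 1, 2 and 3, so the replicate 3 arrays with spike-in signal gave a value between those of the other replicates.

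RefSeq places Tfap2a on chromosome 13 and lists 2 start sites for it. The 250 bases before each start are shown because Tfap2a is the member with the largest difference; the probe sets do not tell which start was used. They lie on the minus strand at chr13:40734921-40735170 and chr13:40733796-40734045 (GRCm38.p6) and are written 5′ to 3′, in the direction of transcription. Capitals would mark a match to any of 4 motifs, each searched on both strands. The AP-2 motif was taken as GCCNNNGGC, which reads the same on both strands. For the Gata factors the letters AGATAA were used, and for the Tead family of Hippo signalling the letters GGAATG. For the Tcf/Lef factors, through which Wnt signals reach the genes that they switch on, the search used ATCAAAG. No motif contains another.
Tfap2a start 1: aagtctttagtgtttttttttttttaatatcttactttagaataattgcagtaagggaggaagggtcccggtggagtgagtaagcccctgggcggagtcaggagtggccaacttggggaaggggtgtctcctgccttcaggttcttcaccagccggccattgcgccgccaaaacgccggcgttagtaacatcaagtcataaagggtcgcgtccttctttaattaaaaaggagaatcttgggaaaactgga
Tfap2a start 2: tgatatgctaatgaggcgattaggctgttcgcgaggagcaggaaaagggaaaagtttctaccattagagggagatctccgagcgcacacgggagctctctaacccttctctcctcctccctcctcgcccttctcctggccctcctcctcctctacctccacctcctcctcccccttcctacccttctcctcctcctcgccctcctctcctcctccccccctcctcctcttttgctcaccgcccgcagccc
Neither window held a match. Over all 32851 RefSeq promoter windows of this length the share with a match was 13.7% for the AP-2 letters, 9.99% for Gata, 12.6% for Tead and 3.21% for Tcf/Lef. Windows of 7 members are in the table; Tfap2c, Tead4 and Hand1 were not analysed here.

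Tfap2c lay the other way from Tfap2a. Its brightest probe set read 1011, 1868 and 3069 in DKO and 3208, 3108 and 3709 in wild-type cells. All DKO arrays lay below all wild-type arrays, but DKO replicate 3 nearly reached them and the DKO arrays spread over 3.04-fold. The log2 difference was -0.89 (SE 0.38), with an adjusted p of 0.354 that did not pass, also with the replicate block (0.0772). The second probe set read 824, 944 and 1218 against 1809, 1698 and 2105, a difference of -0.92 (SE 0.25, adjusted p = 0.101; 0.0212 with the replicate block). The dimmest of the 3 fell and was the tightest: it read 245, 192 and 225 in DKO and 534, 540 and 699 in wild-type cells. Its difference of -1.42 (SE 0.24, 95% interval -1.96 to -0.88) passed with an adjusted p of 0.0141, and 0.00262 with the replicate block. That call was lost when DKO replicate 2 was omitted (adjusted p = 0.0701) or wild-type replicate 2 was omitted (0.0577), and over replicates 1 and 2 alone the difference was -1.31 (adjusted p = 0.0838). The 3 Tfap2c probe sets thus shared a direction and complete separation of the genotypes, and differed in size and in their call; the mean over them passed (-1.08, adjusted p = 0.0392).

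**Figure D2:**
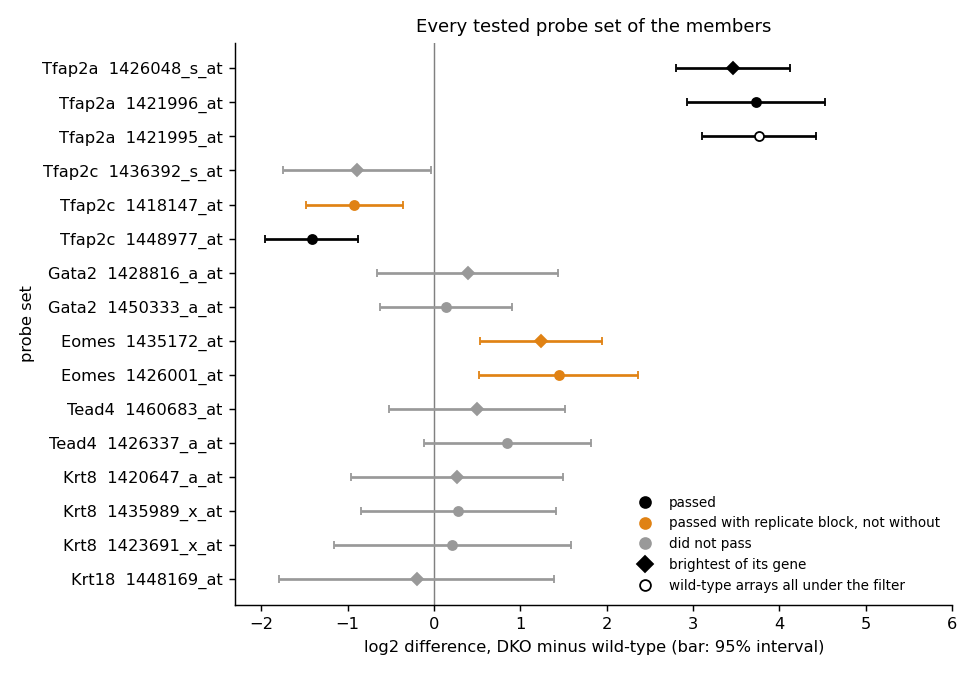
Log2 difference (DKO minus wild-type) with its 95% interval for each of the 16 tested probe sets of the 7 tested genes, diamonds marking the brightest of each gene, black those that passed, orange those that passed with the replicate number as a block but not without it, and grey the rest. The 2 brighter Tfap2a probe sets lie at 3.46 and 3.73, and the open marker is the dimmest, whose wild-type arrays were all under the filter, so that its place is not a measured size. The Tfap2c probe sets lie between -1.42 and -0.89, and the intervals of Gata2, Tead4, Krt8 and Krt18 span 0.

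The Gata factors bind the sequence for which they are named. Gata3 acts beside Cdx2 in trophectoderm and Gata2 in later trophoblast and in blood progenitors. The brighter Gata2 probe set read 149, 66 and 123 in DKO and 158, 49 and 69 in wild-type cells. The genotypes overlapped fully, with the highest value in wild-type replicate 1 and the lowest in wild-type replicate 2. The log2 difference was 0.39 (SE 0.46, 95% interval -0.65 to 1.44, adjusted p = 0.843). The dimmer probe set differed by 0.14 (adjusted p = 0.938). A change of Gata2 of up to 2.71-fold upward or to 0.635 of the wild-type level lies within the interval.

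Gata3 had 1 probe set, which read 8, 6 and 6 in DKO and 16, 10 and 12 in wild-type cells. Only wild-type replicate 1 reached the filter, so Gata3 was not tested, and whole-number values this low are coarse. The DKO arrays were all below the wild-type arrays. Among blood markers, which could accompany Gata2, 11 of 14 lay under the filter on all 6 arrays, among them Ptprc, Tal1, Itga2b and Klf1, and by limma 0 of the 3 tested passed (1 at an unadjusted p under 0.05, 0 with the replicate block).

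Eomes, a T-box factor of trophoblast stem cells and of the primitive streak, was brighter in DKO on both of its probe sets. The brighter read 235, 189 and 291 in DKO and 135, 68 and 106 in wild-type cells. The lowest DKO array was above the highest wild-type array, and the lowest array of each genotype was replicate 2. The means were 7.87 ± 0.31 and 6.63 ± 0.50 (SD, n = 3), a log2 difference of 1.24 (SE 0.31) with an adjusted p of 0.0787, which did not pass. When the model held the replicate number as a block, the adjusted p was 0.00734, and with the replicate 3 arrays as a block 0.0446. The second probe set read 200, 197 and 264 against 145, 44 and 81, a difference of 1.44 (SE 0.40, adjusted p = 0.118; 0.0167 with the replicate block and 0.0244 without wild-type replicate 1). The same-numbered arrays of the brighter probe set differed by 0.80, 1.47 and 1.46, all upward. Its adjusted p ran from 0.0552 to 0.292 over the 6 unpaired fits that left out an array.

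Because Eomes also marks the primitive streak, the streak and early mesoderm markers stand beside it. Of 10 tested, 1 rose (Cdx1, a caudal homeobox gene tested only through its DKO arrays, at least 7-fold), 0 fell and 9 did not pass, with a median log2 difference of 0.74. By limma 4 of the 10 had an unadjusted p under 0.05, and blocking by replicate number gave 2 higher and 0 lower. In 4 (Cdx1, Evx1, Mixl1 and Snai2) every DKO array lay above every wild-type array, and in 0 below. Over all tested genes 18.9% separated in 1 direction or the other, and 1.64% passed as higher in DKO. Evx1 differed by 1.67 (limma adjusted p = 0.0891, and 0.00728 with the replicate block). Mixl1 differed by 0.92 (adjusted p = 0.292 and 0.0566 in the same fits). Of 25 named genes of this list 12 were under the filter on all arrays, among them Mesp1, Tbx6, Wnt3, Fgf8 and Msgn1. The list also held T, which was not among the named genes. The summed intensity of the list was 3858 to 5687 in DKO and 3088 to 3573 in wild-type cells. It includes Tbx3 and Pdgfra, which read mean log2 11.36 and 10.25 in DKO and 10.94 and 9.63 in wild-type cells. Neither passed by limma on its brightest probe set (adjusted p = 0.552 and 0.639), but 1 of the 4 tested Tbx3 probe sets passed. The part of streak cells in the Eomes value was not tested. RefSeq lists 1 start for Eomes, on chromosome 9, and the 250 bases before it (plus strand, chr9:118477939-118478188, GRCm38.p6) are shown because Eomes is the other member whose DKO arrays all lay above the wild-type arrays.
Eomes: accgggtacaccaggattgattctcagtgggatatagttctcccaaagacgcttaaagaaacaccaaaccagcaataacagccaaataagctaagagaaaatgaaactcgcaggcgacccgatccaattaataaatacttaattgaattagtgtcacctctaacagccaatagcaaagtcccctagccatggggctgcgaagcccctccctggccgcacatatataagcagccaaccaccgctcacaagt
This window held none of the 4 motifs, like those of Tfap2a.

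Tead4 is the DNA-binding factor that starts the trophectoderm programme. Its brighter probe set read 45, 36 and 61 in DKO and 70, 24 and 21 in wild-type cells. The genotypes overlapped because wild-type replicate 1 was the highest of all 6 arrays. The log2 difference was 0.50 (SE 0.45, 95% interval -0.52 to 1.51, adjusted p = 0.775). The other probe set read 40, 36 and 78 against 47, 17 and 24 and differed by 0.85 (adjusted p = 0.47).

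No partner of Tead4 passed. In the Hippo list, by limma 0 of 18 tested genes passed (0 at an unadjusted p under 0.05 and 0 with the replicate block), with a median of -0.15. The coactivators Yap1 and Wwtr1, which encodes Taz, differed by 0.09 and 0.39, and the paralogs Tead1 and Tead2 by -0.15 and -0.49. Tead3 lay under the filter on every array.

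Elf5 and Hand1 were near the bottom of the scale. Elf5, an Ets factor held silent by DNA methylation in embryonic stem cells, read 3 to 5 on each of its 2 probe sets in all 6 arrays. Hand1, a basic helix-loop-helix factor of giant cells and of mesoderm, read 3 to 8 on its 2 probe sets. Neither gene reached the filter in any array, and values this low carry no order between the genotypes.

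Keratin 8 and keratin 18 are filament partners, and RefSeq places their genes next to each other among the tested genes of chromosome 15. The brightest Krt8 probe set read 1215, 617 and 1451 in DKO and 1991, 432 and 728 in wild-type cells. Krt18 read 2411, 340 and 1184 in DKO and 2371, 617 and 1005 in wild-type cells. For both genes the arrays of the genotypes were interleaved, and replicate 2 was the lowest array of each genotype. Krt8 differed by 0.27 (SE 0.54, 95% interval -0.97 to 1.497, adjusted p = 0.922) and its other probe sets by 0.28 and 0.21. Krt18 differed by -0.20 (SE 0.70, 95% interval -1.79 to 1.39, adjusted p = 0.961). The sign of both differences turned when single arrays were left out, Krt8 to -0.23 without wild-type replicate 2 and Krt18 to 0.57 without DKO replicate 2.

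The keratins stood out by their spread within a genotype. The within-genotype SD of log2 intensity was 1.23 for Krt18 and 0.92 for Krt8, above 99.6% and 98.0% of all tested genes, whose median was 0.34. Krt18 ranged over 7.09-fold among the DKO arrays and 3.84-fold among the wild-type arrays, and Krt8 over 2.35-fold and 4.61-fold. Gata2 (SD 0.75) and Tead4 (0.73) were above 94.97% and 94.1% of genes. Tfap2a, at 0.37, was near the middle, above 55.2%. Same-numbered arrays shared part of the keratin spread: with the replicate block the SE of the difference was 0.252 for Krt18 and 0.307 for Krt8, and neither passed (adjusted p = 0.719 and 0.689).

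The windows before the Krt8 and Krt18 starts are shown because these neighbours encode partner proteins and both read lowest in replicate 2 of each genotype. Krt8 lies on the minus strand (chr15:102004343-102004592) and Krt18 on the plus strand (chr15:102027966-102028215, both GRCm38.p6), each written in the direction of its gene with motif matches in capitals.
Krt8: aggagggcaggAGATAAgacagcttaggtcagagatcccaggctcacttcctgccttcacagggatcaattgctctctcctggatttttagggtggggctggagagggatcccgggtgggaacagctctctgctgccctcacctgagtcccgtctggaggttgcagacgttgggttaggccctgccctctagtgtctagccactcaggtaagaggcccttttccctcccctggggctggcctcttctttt
Krt18: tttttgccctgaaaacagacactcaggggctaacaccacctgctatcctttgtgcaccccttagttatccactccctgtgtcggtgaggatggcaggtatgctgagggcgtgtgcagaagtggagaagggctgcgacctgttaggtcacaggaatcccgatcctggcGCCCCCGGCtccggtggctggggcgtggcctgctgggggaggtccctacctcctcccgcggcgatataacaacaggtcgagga
Krt8 had 1 match to the Gata letters, beginning 239 bases before the start, and Krt18 had 1 match to the AP-2 letters, beginning 83 bases before it. A match describes the letters and not a bound site.

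Members that overlapped between genotypes were also compared with each other from array to array. Krt8 and Krt18 had a Pearson r of 0.81 (exact permutation p = 0.0556) and a Spearman rho of 0.77 (exact permutation p = 0.103) over the 6 arrays, and r was 0.76 without wild-type replicates 1 and 2, the 2 arrays farthest from the median of Krt8. The highest r of the 6 relations computed among Gata2, Tead4, Krt8 and Krt18 was that of Gata2 with Krt8, at 0.96 (exact permutation p = 0.0139; rho 0.94, exact permutation p = 0.0167; r 0.92 without wild-type replicates 1 and 2). After Benjamini-Hochberg adjustment over the 6 relations 0 passed by exact permutation, with adjusted p-values from 0.0667 to 0.256 for r and from 0.1 to 0.242 for rho, and 4 of 6 values of r had an unadjusted p under 0.05. The 4 arrays without spike-in signal and the 2 with it are too few for a value within each. These relations were chosen after the values were seen.

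Replicate 2 was the lowest array of both genotypes for Krt8, Krt18, Gata2 and Eomes, 4 of the 7 tested members, against 15.4% of all tested genes. Krt19, another simple keratin, shared this order with a still wider range, at log2 8.82, 5.49 and 8.43 in DKO and 8.22, 5.52 and 7.62 in wild-type cells. So did 9 of 20 tested keratin partners and simple epithelial genes, among them Cldn4, Cldn7, Jup and Spint1, and 10 of 22 other trophoblast stem cell genes, among them Dlx3, Rhox6, Rhox9 and Plet1. It was also the order of 4 of 5 surface ectoderm and epidermal markers (Msx1, Msx2, Perp and Sfn), 2 of 10 streak, 2 of 8 fibroblast and 1 of 16 endoderm markers. None of the 12 stem cell markers, 18 Hippo genes, 8 differentiated trophoblast genes, 7 other AP-2 and Gata genes or 3 blood markers had it. The order was counted whatever the size of the gaps. Cldn4 and Dlx3 read near the filter, where values are coarse, and the DKO arrays of Ddah1, also counted, read log2 11.03, 11.01 and 11.03. In replicate 2 the 3' over 5' signal of the 3 control transcripts was the highest of the DKO arrays (2.44) and the middle of the wild-type arrays (2.00). The cause of the replicate 2 order was not tested.

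**Figure D3:**
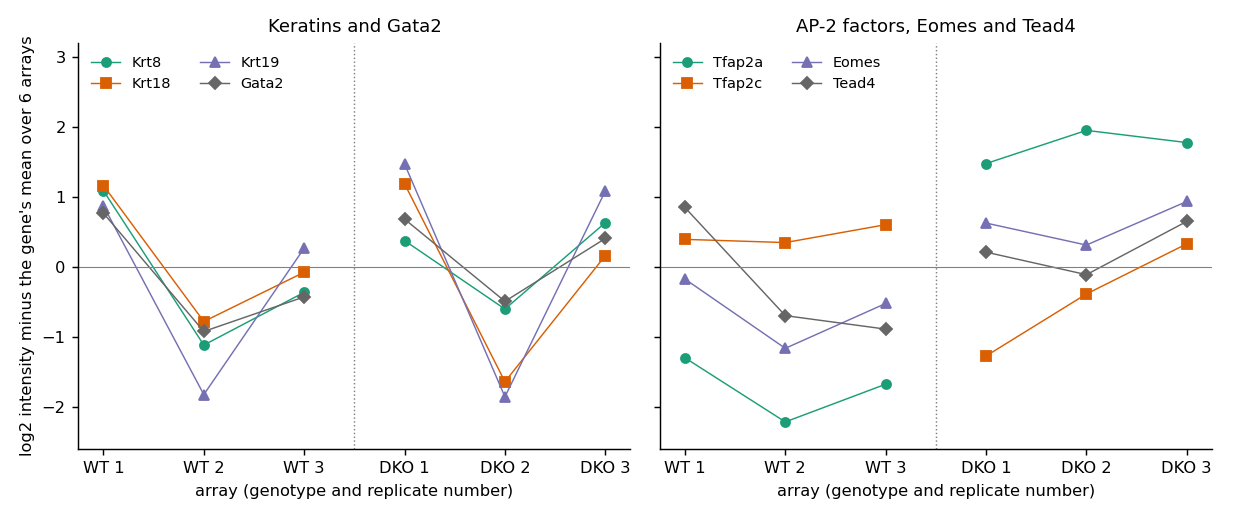
Log2 intensity of each gene minus its own mean over the 6 arrays, for each array by genotype and replicate number; thin lines join the arrays of a genotype only to trace a gene. In the left panel Krt8, Krt18, Krt19 and Gata2 are lowest in replicate 2 of both genotypes, and in the right panel Tfap2a separates by genotype while Tfap2c lies the other way.

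The wider trophoblast programme was examined through lists that do not contain the 10 genes. Of 22 tested other trophoblast stem cell and ectoplacental genes 4 rose, 0 fell and 18 did not pass, with a median log2 difference of 0.22; 1.64% of all tested genes rose. The risers were Sp5 (4.28), a Wnt target gene, Cdx2 (4.09), the homeobox factor of trophectoderm and of the posterior embryo, Hopx (2.38, a homeodomain-only protein) and Ppp2r2c (1.45, a phosphatase subunit). Cdx2 read log2 10.35, 11.02 and 10.91 in DKO and 6.63, 6.70 and 6.69 in wild-type cells on its brightest probe set (limma adjusted p = 9.71e-05). Its 2 tested probe sets passed but differed in size, at 4.09 on the brightest and 2.08 on the other. Sp5 and Cdx2 passed in all 6 fits that left out an array. Hopx lost its call without DKO replicate 1 or 3 or wild-type replicate 2 or 3 (adjusted p up to 0.203). Ppp2r2c lost it without DKO replicate 1 or any single wild-type array (adjusted p up to 0.0686).

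Genes of differentiated trophoblast and placenta were mostly dark. Of 22 named genes 12 were under the filter on every array, among them Tpbpa of the spongiotrophoblast, Plac1, Prl7d1 and several Psg and cathepsin genes. Of the 8 tested, 1 rose (Stra6, a retinol transporter, by 3.22), 1 fell (Phlda2, an imprinted growth restrainer of the placenta, by 2.93 on the log2 scale) and 6 did not pass, with a median of -0.42. The wild-type arrays of Stra6 read log2 4, 4 and 3.58, at or under the filter, so its difference rests on low values. Its DKO arrays spread widely, at 6.48, 5.81 and 8.97. Stra6 did not pass without DKO replicate 1 or any single wild-type array (adjusted p up to 0.154), and with a pseudocount of 16 its adjusted p was 0.0992.

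Relatives of the members gave few calls. Of 7 tested other AP-2 and Gata family and cofactor genes 0 passed by limma (1 at an unadjusted p under 0.05; with the replicate block 1 rose and 1 fell), and Tfap2b was under the filter on all arrays. Among 18 other keratins 13 were under the filter on every array, and of 3 tested 1 rose, Krt23, a type I keratin, which was at least 2.46-fold higher in DKO. Its wild-type arrays were all under the filter, so it entered the test only through its DKO arrays, and its adjusted p of 0.000988 rests on those low values. Krt19 differed by 0.46 (adjusted p = 0.917), and Krt7, a trophoblast keratin, reached the filter only on wild-type replicates 1 and 3. Of 20 tested keratin partners and simple epithelial genes 0 rose and 1 fell, Grhl2, an epithelial transcription factor (-2.23, adjusted p = 0.0176), and 19 did not pass. Grhl2 lost its call without DKO replicate 1 or 2 (adjusted p = 0.0877 and 0.0725).

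Lineages other than trophoblast also make AP-2 factors, Gata factors or keratins. The surface ectoderm, endoderm and fibroblast lists gave no call on the brightest probe set of each gene, unlike the streak list above (Cdx1). Of 15 surface ectoderm and epidermal markers 9 were under the filter on all arrays, among them Trp63, Krt5 and Krt14, and by limma 0 of 5 tested passed (3 at an unadjusted p under 0.05, 1 with the replicate block). Their summed intensity was 1220 to 2528 in DKO and 2352 to 2968 in wild-type cells. This sum is mostly that of Perp, by far the brightest of them. Perp read mean log2 10.39 in DKO and 11.19 in wild-type cells and did not pass (limma adjusted p = 0.305). Of 16 tested primitive and visceral endoderm markers 0 passed by limma (4 at an unadjusted p under 0.05, 1 with the replicate block). Their summed intensities were 16773 to 24394 in DKO and 12725 to 21689 in wild-type cells, and their median log2 difference was 0.13. In 2 of the 16 (Hnf4a and Foxa2) every DKO array lay above every wild-type array, and in 0 below, against 18.9% of all tested genes in either direction. Hnf4a differed by 2.61 on its brightest probe set (limma adjusted p = 0.134, 0.0255 with the replicate block). Its wild-type arrays there read log2 8.56, 8.04 and 5.09. Of its 2 tested probe sets 1 passed. Other markers lay the other way without passing, among them Dab2 (-1.45, limma adjusted p = 0.305) and Cubn (-0.88, 0.719). Of 8 tested fibroblast markers 0 passed by limma (2 at an unadjusted p under 0.05, 2 with the replicate block). The part of any of these cells in the values of Tfap2a, Tfap2c or Eomes was not tested.

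**Figure D4:**
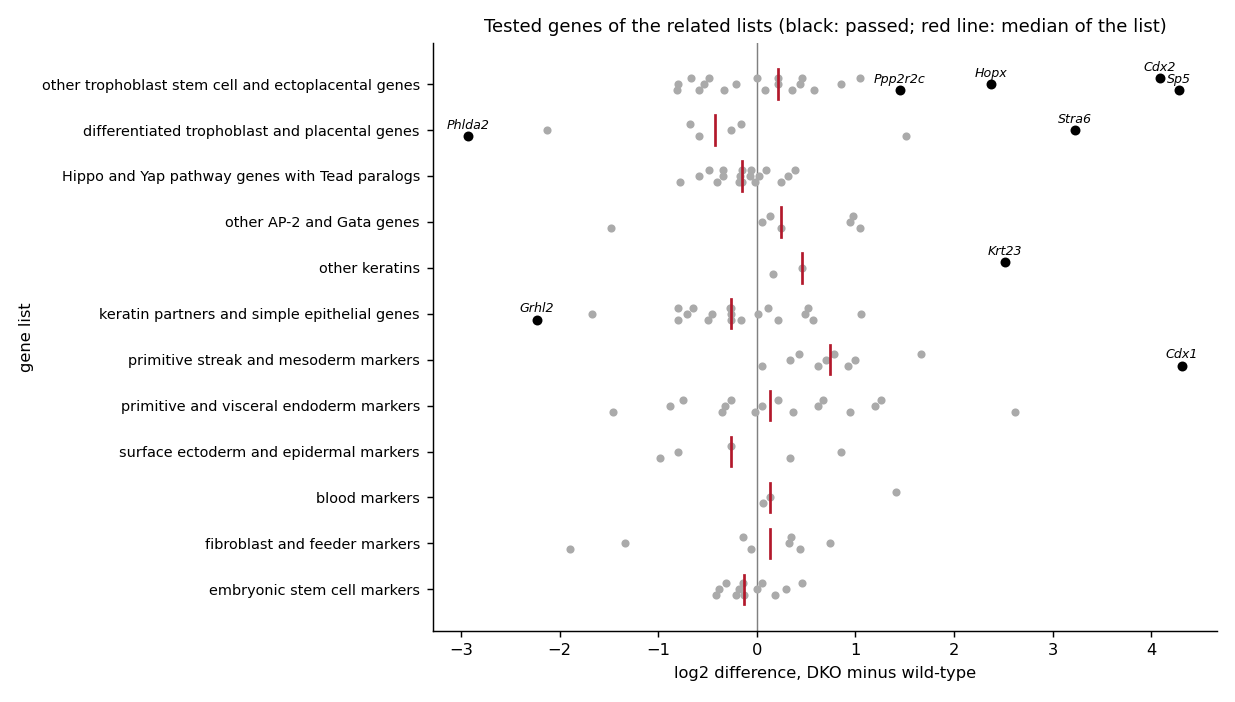
Log2 difference (DKO minus wild-type) of each tested gene in the 12 related lists, with genes that passed in black and named and the median of each list as a red line. The risers Cdx2, Sp5, Cdx1, Stra6, Krt23, Hopx and Ppp2r2c lie to the right, Phlda2 and Grhl2 to the left. The list medians lie between -0.42 and 0.74. Cdx1 and Krt23 are placed by wild-type values under the filter, and Stra6 by wild-type values at or under it.

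The genes most like Tfap2a across the arrays were sought over all tested genes, by the root mean square distance of log2 values centred on each gene's mean. The nearest were Ceacam10 (0.23), Wnt5b (0.27), a Wnt ligand, and 1700097N02Rik (0.28), over 6 arrays. The wild-type arrays of Wnt5b (log2 2.81, 2.58 and 2.81) were all under the filter, so its distance rests in part on values that low. Ceacam10 read log2 7.43, 8.57 and 7.82 in DKO and 5.13, 4.17 and 4.52 in wild-type cells, and so shared with Tfap2a its highest DKO array and its lowest wild-type array, both replicate 2. Likeness over 6 arrays in 2 genotypes is mostly the difference between the genotypes, and these genes were picked for it.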

How the data were processed

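Total RNA (25 ng per sample) was amplified to biotin-labelled cDNA and hybridised to Affymetrix mouse arrays, per the labels' protocols. The values deposited by the authors are whole-number intensities, 1 per probe set and array, from 1 to 12861, taken as linear because of that range. Software listed in the submitters' processing notes, with no role given, was limma 2.16.5, GCRMA 2.14.1, GCOS and R 2.8.0. No genome build is given in the sources read. Log2 was taken here with no pseudocount. Rounding makes low values coarse, and the number of arrays limits the precision.

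Of 45101 probe sets 34958 had 1 gene in the platform annotation, 932 several and 9211 none named; 34754 matched the RefSeq table (GRCm38.p6), used for names, gene order and promoters. Probe sets with log2 of at least 4 on at least 3 of 6 arrays, array controls (64) left out, were tested: 20841, of 10496 genes. DKO was compared with wild-type with limma 3.58.1 (R 4.3.3, lmFit and eBayes, two-sided, Benjamini-Hochberg, threshold 0.05) over the whole table, and each gene was read on its brightest probe set. "At least" folds set the dim genotype to the filter. The procedure was tested on simulated data.

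Arrays with the same number deviated together from the mean of their genotype (r = 0.427, 0.354 and 0.595 over tested probe sets, and -0.488 to 0.113 for unlike numbers). Each same-numbered r was over 0.1, as was that of DKO replicate 2 with wild-type replicate 1 (0.113). The arrays were taken as paired by the numbers in the titles. This pairing was read from the same data, and the p-values with the replicate block depend on it. The labels do not say what the numbers stand for. The block is an alternative to the unpaired fit. At most 1.79% of tested probe sets had the same value on any 2 arrays.

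Members and lists were chosen with earlier results of these data known. Named are all members, up to 4 genes per related list that passed, and a set of partners and stem cell genes. Named for other reasons, after values were seen, are genes listed as under the filter, genes lowest in replicate 2, and Gsk3a and Gsk3b as the deleted genes. Alternatives were other filters, a pseudocount of 16, quantile normalization, blocks, leaving out arrays, a variance trend and means over probe sets.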

Additional observations from a re-analysis of the deposited data

How the results depend on the processing

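Among members, 2 genes were higher with the replicate 3 arrays as a block and 2 with the replicate block (Tfap2a and Eomes), against 1 otherwise, and 1 was lower (Tfap2c) with means over probe sets, against 0 otherwise. Leaving out any 1 array gave 1 higher and 0 lower. Of 124 tested genes in the related lists 7 were higher and 2 lower. These became 14 and 9 with the replicate block, 4 and 0 with no filter on low values, and 4 to 7 and 1 to 4 without 1 array. The lower count was 4 with the replicate 3 arrays as a block, 4 over replicates 1 and 2 only and 4 with means over probe sets. Over all genes 172 were higher and 262 lower, against 105 and 148 with a filter at log2 6, 72 and 88 with no filter, 289 and 398 with the replicate 3 block, 532 and 591 with the replicate block, and 79 to 179 and 105 to 213 without 1 array.

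For the 16 member probe sets, 206 of 228 values under 15 alternatives kept their direction and their side of the threshold, 7 newly passed, 3 no longer passed (the dimmest Tfap2c probe set) and 12 changed sign, none of them a called value. Over replicates 1 and 2 only the signs turned for Krt8 (-0.10 on the brightest and -0.082 on another probe set), Tead4 (-0.026) and the dimmer Gata2 probe set (-0.098). Without 1 array, values reached -0.107 to 0.461 for that Gata2 probe set, -0.84 to 0.57 for Krt18 and -0.23 to 0.87, -0.16 to 0.87 and -0.29 to 0.82 for the 3 Krt8 probe sets. Tfap2a passed in all 15 alternatives on its brightest probe set and in all 14 on the second brightest (brightest 3.202 to 3.678). Eomes newly passed only with the 2 blocks on its brightest probe set, and on the other with the replicate block or without wild-type replicate 1. The cause of these moved counts, lost calls and 12 sign changes was not tested.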

Other observations

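The genes next to the members on their chromosomes were read after the values were seen, as the 3 nearest tested genes on each side. Over all tested genes 4.13% passed by limma, and 0 neighbours passed beside any member except Tfap2c. Beside Tfap2c on chromosome 2, 2 of 6 passed by limma, and they lay in opposite directions. Each entered the test only through the genotype where it was high, with all 3 arrays of the other under the filter, so both calls rest on values that low. Bmp7, a bone morphogenetic protein, read log2 5.09, 4.86 and 5.09 in DKO and 3.58, 2.58 and 3.32 in wild-type cells (adjusted p = 0.0112; 0.0801 without DKO replicate 1), and was at least 2.02-fold higher in DKO. Cass4, a Cas-family scaffold protein, read 3, 3.46 and 3.91 in DKO and 5.39, 5.91 and 5 in wild-type cells (adjusted p = 0.0127), and was at least 2.70-fold lower in DKO. Cass4 did not pass without DKO replicate 1 or 2 or wild-type replicate 2 (adjusted p up to 0.0808). Beside Tfap2a 0 of 6 passed by limma (0 at an unadjusted p under 0.05, 0 with the replicate block), and beside Eomes 0 of 6 (2 at an unadjusted p under 0.05, 2 with the replicate block).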
